A study of Homo sapiens with 9 samples.

Results

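The spliceosomal small nuclear RNAs (snRNAs) are short noncoding RNAs that form the core of the spliceosome. The group described here has 10 genes, chosen by symbol and not by measured values: RNU4-1, RNU4-2, RNU5A-1, RNU5B-1, RNU5D-1, RNU11, RNU12, RNU4ATAC, RNU6ATAC and RNU1-1. They are 10 of 26625 genes in the count tables. Reads were found for 9 of them in at least 1 library, and 6 passed the filter on low counts.

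The study compared oligo(dT) primers for reverse transcription in total RNA of wild-type human cell lines, grown in culture with serum, and the labels name no treatment. HEK293T is a transformed embryonic kidney line and A549 a lung carcinoma line with an epithelial label. In HEK293T, T12, T18 and T30 are plain runs of 12, 18 or 30 T. T18V, T18VN and T18VNN place 1, 2 or 3 anchor bases after 18 T, of which the first is not T and the rest are arbitrary. The primer list names the T18VN oligo "T12VN", although its printed T run has the length of T18. A549 had the T12 primer. Gene counts covered 7 of the 9 libraries, 1 for each of the 6 HEK293T primers and 1 for A549. The labels do not tell whether different primers were used on separate cultures, so the spread between primers may be technical.

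The major spliceosome uses U1, U2, U4, U5 and U6 snRNAs. U1 pairs with the start of an intron, U4 holds U6 inactive by base pairing until activation, and U5 contacts the exon ends. A separate, minor spliceosome removes a rare class of introns with U11, U12, U4atac and U6atac, which take the roles of U1, U2, U4 and U6, and it shares U5. Most snRNAs are made by RNA polymerase II, are cut at their end by the Integrator complex and carry no poly(A) tail, while U6 and U6atac are made by RNA polymerase III and end in a run of U. Short oligo(A) tails on snRNA ends are known as processing intermediates, which the deadenylase TOE1 trims. An oligo(dT) library is therefore not designed to capture mature snRNAs.

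The sequences below belong to the U4 genes and to U4atac and U6atac of the minor spliceosome, on which several results turn. They are the GENCODE release 29 transcripts (GRCh38), written 5′ to 3′ with T for U. Capitals mark runs of at least 4 A.
RNU4-1: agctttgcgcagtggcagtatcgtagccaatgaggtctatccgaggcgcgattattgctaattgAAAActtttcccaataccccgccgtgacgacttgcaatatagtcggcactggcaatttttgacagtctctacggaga
RNU4-2: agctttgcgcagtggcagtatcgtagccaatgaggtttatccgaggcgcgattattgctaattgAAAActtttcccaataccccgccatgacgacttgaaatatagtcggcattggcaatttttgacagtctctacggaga
RNU4ATAC: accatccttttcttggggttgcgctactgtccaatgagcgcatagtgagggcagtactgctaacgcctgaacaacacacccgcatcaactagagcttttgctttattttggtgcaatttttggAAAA
RNU6ATAC: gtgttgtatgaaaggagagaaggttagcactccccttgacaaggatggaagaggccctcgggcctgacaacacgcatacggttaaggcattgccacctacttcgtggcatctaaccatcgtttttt
No member holds a long A run. The longest was 5 A, at the 5′ end of RNU11, and 5 of the 10 members had a run of at least 4 A. Of 2766 annotated short RNAs of 100 to 170 nt, 54.3% had a run of at least 4 A and 14.2% one of at least 5 A. RNU4-1 and RNU4-2 carry their 4 A from position 65, far from the end. In these transcripts RNU4ATAC ends in 4 A, RNU4-1 and RNU4-2 end in 1 A, and RNU6ATAC ends in 6 T. They are 127 nt (RNU4ATAC), 141 nt (RNU4-1) and 126 nt (RNU6ATAC) long. The counted entries of these genes were 130, 144 and 125 nt, so their annotated ends may differ. The motif AATTTTTG, searched on the transcript strand as the binding site of the Sm protein ring, was in RNU4-1, RNU4-2, RNU12 and RNU4ATAC and in 2.39% of the short RNAs. RNU1-1 held AATTTGTGG, found in 2.46% of the short RNAs. RNU11 held the longer form AATTTTTTG, found in 0.723%, and RNU6ATAC held none of the 3 forms. The U5 genes are not described by sequence here.

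Members can resemble one another, which bears on how reads can be assigned. RNU4-1 and RNU4-2 were 97.2% identical over 141 aligned bases and differed by C37T, G88A, C99A and C113T (RNU4-1 base first, counted from its 5′ end). RNU1-1 had 7 other annotated genes with exactly its sequence, and the other 9 members had none. How reads with several equal matches were counted is not given in the sources used here.

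In the coordinates of the count tables (hg19), RNU4-1 lies on chromosome 12 (120730897 to 120731040, minus strand) and RNU4-2 on the same strand (120729566 to 120729706), 1190 bp apart. RNU5A-1 (chromosome 15, 65588389 to 65588505) and RNU5B-1 (65597015 to 65597131) are both on the plus strand, 8509 bp apart. RNU5D-1 is on chromosome 1 (45196741 to 45196840, minus), as are RNU11 (28975112 to 28975246, plus) and RNU1-1 (16840617 to 16840780, minus). RNU12 is on chromosome 22 (43011251 to 43011399, plus), RNU4ATAC on chromosome 2 (122288456 to 122288585, plus) and RNU6ATAC on chromosome 9 (137029562 to 137029686, minus). In GENCODE release 29, RNU4ATAC lies in an intron of CLASP1, on the opposite strand, and in an intron of the antisense gene AC012447.1. RNU5A-1 lies in an intron of PARP16, also on the opposite strand, and RNU11 and RNU12 overlap exons of long noncoding RNAs on their own strand. The other 6 members were intergenic. Whether reads were counted by strand is not given in the sources used here.

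The libraries held 7491993 to 25578543 reads, totals recovered from the deposited scaled signal. Gene reads, summed over 1 entry per gene, numbered 1498188 (A549) to 5200799 (HEK293T T18). They equalled 11.7% (T30) to 37.5% (T18V) of the total, and reads in overlapping genes can count more than once. CPM below is a read count scaled to 1000000 gene reads, and the floor of 3 reads was 0.577 to 2.00 CPM. Of the marker genes used to check the labels, all 8 for A549 (TGFBI, ALDH1A1 and keratins among them) were higher in A549 than in every HEK293T library, and all 6 for HEK293T (NEFM and LIN28B among them) were lower.

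Together the 10 snRNA genes took a very small part of the gene reads, except with 1 primer. Their summed level was 73.5, 58.5 and 48.3 CPM with the T12, T18 and T30 primers and 50.5 and 100.9 CPM with T18V and T18VN. With T18VNN it was 1459 CPM, from 5246 reads, or 0.146% of the gene reads (95% Wilson interval 0.142 to 0.150). T18VNN thus stood 14.5-fold above the highest other HEK293T library (T18VN), with an exact interval of 13.1 to 16.0 that covers counting error only. A549 with T12 had 111 CPM from 166 reads. The other 5 HEK293T libraries lay within 48.3 to 100.9 CPM, so the members as a group separated T18VNN from the rest.

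**Figure D1:**
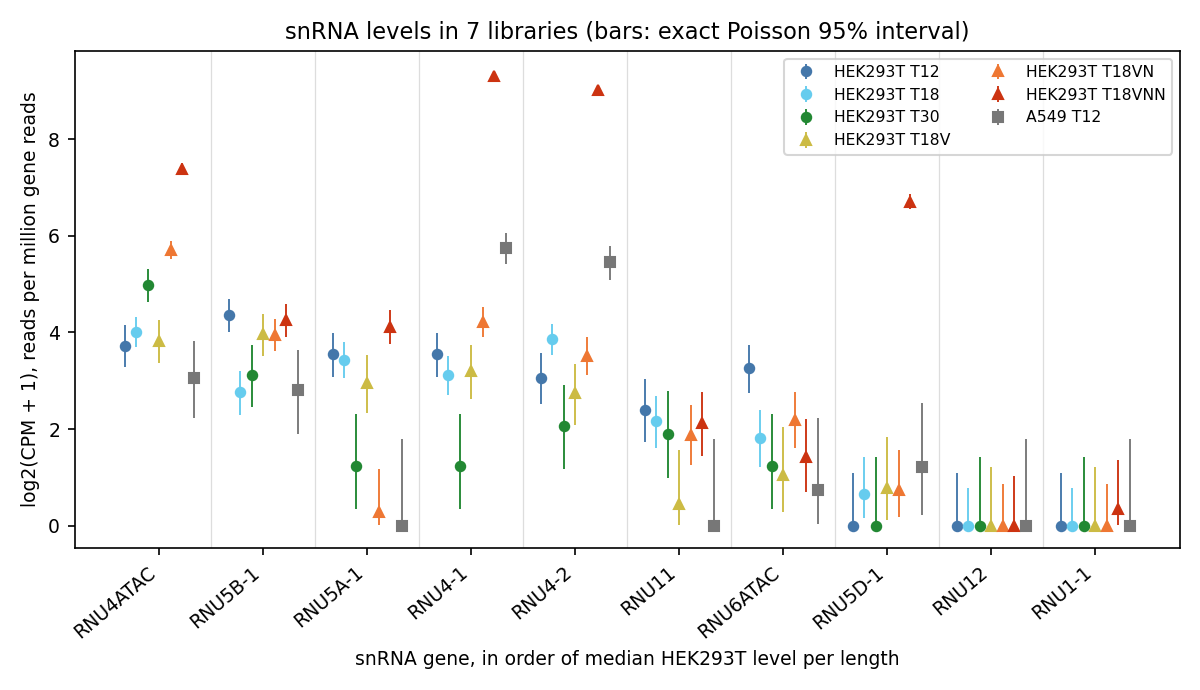
Level of each snRNA gene in 7 libraries on a log2(CPM + 1) axis. Circles are unanchored and triangles anchored HEK293T libraries, the square is A549, and bars are exact Poisson 95% intervals. T18VNN stands far above the other libraries for RNU4-1, RNU4-2 and RNU5D-1, and RNU12 is at 0 in all 7.

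The 2 U4 genes held most of the T18VNN reads of the group. RNU4-1 had 10.7, 7.69 and 1.35 CPM with the T12, T18 and T30 primers and 8.18, 17.6 and 631 CPM with T18V, T18VN and T18VNN. Its 2269 reads in T18VNN faced 79 in T18VN, the next highest, a ratio of 35.8 (exact interval 28.6 to 45.4). RNU4-2 had 7.35, 13.5 and 3.16 CPM with the T12, T18 and T30 primers and 5.69, 10.5 and 518 CPM with T18V, T18VN and T18VNN. It stood 38.5-fold (30.3 to 49.6) above T18, its next highest library. T30 was the lowest library for both U4 genes, with 3 and 7 reads. RNU4-1 made up 54.9% of the reads of the pair in T18VNN (95% Wilson interval 53.4 to 56.4) and 55.2% in A549 (47.1 to 63.2). It made up 36.4% in T18 (28.0 to 45.7), which lies below both. The split between these near-identical genes depends on how reads matching both were assigned, which was not tested.

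The U5 genes did not share this pattern with each other. RNU5D-1, a U5 variant, had 0, 3 and 0 reads with the T12, T18 and T30 primers and 2, 3 and 373 reads with T18V, T18VN and T18VNN, the last being 104 CPM. The ratio to T18V, the next highest in CPM, was 146 (exact interval 40.1 to 1208). The 3 anchored libraries all had a higher CPM than the 3 unanchored ones, but T18V and T18VN held only 2 and 3 reads. RNU5A-1 had 10.7, 9.81 and 1.35 CPM with the T12, T18 and T30 primers and 6.76, 0.223 and 16.4 CPM with T18V, T18VN and T18VNN. T18VNN was its highest library, 1.53-fold above T12, with an interval of 0.991 to 2.40 that includes equality. In T18VN it had 1 read, against 65 for RNU5B-1 in the same library. RNU5B-1 had 19.6, 5.77 and 7.67 CPM with the T12, T18 and T30 primers and 14.6, 14.5 and 18.1 CPM with T18V, T18VN and T18VNN. Its T18VNN level was 0.922 times that of T12 (0.643 to 1.32). RNU5A-1 took 63.0% of the reads of the RNU5A-1 and RNU5B-1 pair in T18 (95% Wilson interval 52.1 to 72.7), 47.6% in T18VNN (39.0 to 56.3) and 1.52% in T18VN (0.268 to 8.10). This split, too, may depend on how reads matching both genes were assigned, which was not tested.

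U1 had few reads. RNU1-1 had 1 read in T18VNN and 0 in the other 6 libraries, and RNU1-2, RNU1-3 and RNU1-4 had 0 or 1 read in every library. The U1 variant genes reached at most 10 reads, in RNVU1-7 with T18VNN (2.78 CPM, 0 in the other 6 libraries), and RNVU1-15 had 5 reads with T12. RNU1-1 shares its whole sequence with other genes, and the effect of that on its count was not tested.

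Among the minor spliceosome RNAs, RNU4ATAC had the most reads. It had 12.2, 15.2 and 30.7 CPM with the T12, T18 and T30 primers and 13.2, 51.1 and 167 CPM with T18V, T18VN and T18VNN. T18VNN was 3.26-fold (2.79 to 3.81) above T18VN, which was in turn above T30. CLASP1, which spans it on the other strand, had 18.7 to 55.8 CPM in HEK293T, with 47.0 CPM in T18VNN and its highest value in T18VN. Whether reads from introns of CLASP1 or AC012447.1 entered the RNU4ATAC count was not tested. RNU6ATAC was highest with T12, and its T18VNN value lay within the range of the other 5 libraries. It had 8.57, 2.50 and 1.35 CPM with the T12, T18 and T30 primers and 1.07, 3.57 and 1.67 CPM with T18V, T18VN and T18VNN, from 28, 13, 3, 3, 16 and 6 reads. RNU11 had 14, 18 and 6 reads with the T12, T18 and T30 primers and 1, 12 and 12 reads with T18V, T18VN and T18VNN, or 0.356 to 4.29 CPM, and T18VNN was within that range. RNU12 had 0 reads in all 7 libraries, for which the exact Poisson upper limit is 3.69 reads. That is 0.709 CPM in T18, the library with most gene reads, and 2.46 CPM in A549, the one with fewest.

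Per length, the order of the members by their median over the 6 HEK293T libraries was RNU4ATAC (176 CPM per kb), RNU5B-1 (124), RNU5A-1 (70.8), RNU4-1 (65.6), RNU4-2 (63.3), RNU11 (22.4), RNU6ATAC (16.7) and RNU5D-1 (6.23), with RNU12 and RNU1-1 at 0. The ranges over the 6 libraries overlapped for every pair of neighbours in that order. Within libraries, RNU4-2 was above RNU11 in 6 of 6, while RNU4ATAC was above RNU5B-1, RNU5A-1 above RNU4-1 and RNU4-1 above RNU4-2 in 4 of 6. In T18VNN alone RNU4-1 led with 4381 CPM per kb, followed by RNU4-2 (3672), RNU4ATAC (1281) and RNU5D-1 (1037).

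The make-up of the snRNA reads differed between primers. The U4 pair held 24.6%, 36.2% and 9.35% of the members' reads with the T12, T18 and T30 primers, 27.5% and 27.9% with T18V and T18VN, but 78.7% with T18VNN (95% Wilson interval 77.6 to 79.8) and 86.1% in A549 (80.1 to 90.6). The 4 minor spliceosome genes held 72.0% with T30 (62.8 to 79.6), of which RNU4ATAC made up 68 of 77 reads, and 11.8% with T18VNN (10.9 to 12.7).

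**Figure D2:**
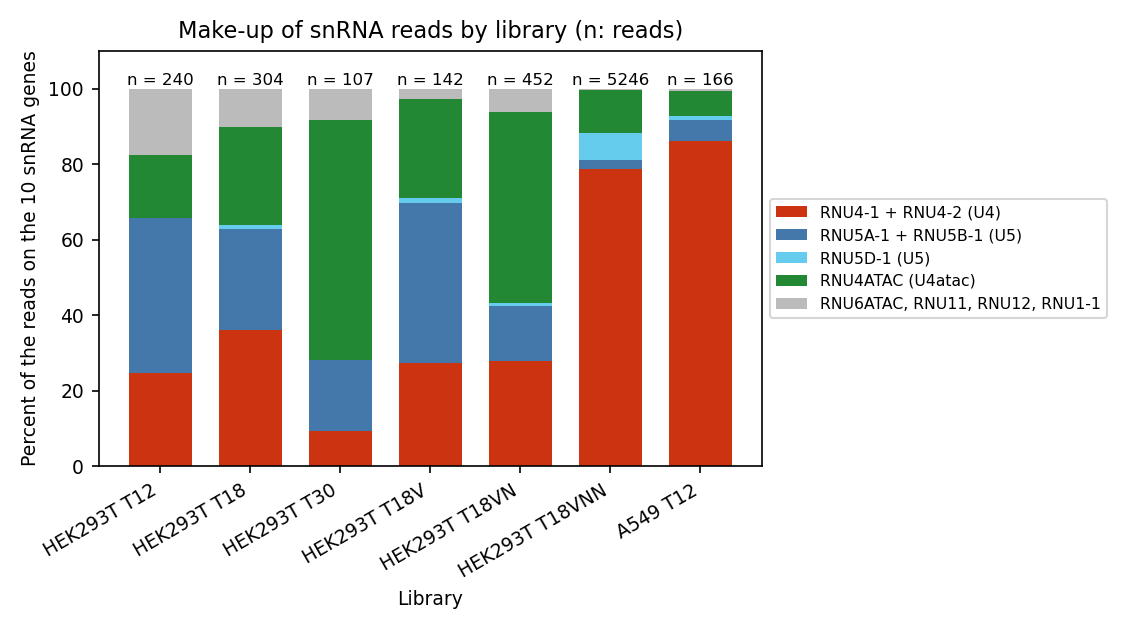
Percent of the reads on the 10 snRNA genes that fell on each group of genes, by library, with the number of reads above each bar. U4 fills 78.7% of the T18VNN bar and 86.1% of the A549 bar, while RNU4ATAC is the largest part of T30.

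T18VNN was then set against the other HEK293T libraries over all genes. Of 11764 genes with at least 20 reads in their highest HEK293T library, 105 (0.893%) were at least 3-fold higher in T18VNN than in each other library, a threshold chosen after the values were seen. Of the 7 members with that many reads, 4 were among them: RNU4-1, RNU4-2, RNU5D-1 and RNU4ATAC. RNU5D-1 passed the minimum of 20 reads only through T18VNN, so its place among the 4 is no support for a difference. Among genes with at least 20 reads in another HEK293T library, an alternative chosen after seeing the data, 3 of 6 members passed, against 43 of 11558 genes (0.372%). At 10-fold, 3 members were left (RNU4-1, RNU4-2 and again RNU5D-1), against 32 of 11764 genes (0.272%). The same 3-fold rule picked 0.204% to 1.03% of genes in each of the other 5 libraries and no member, so T18VNN did not pick more genes than T12 (1.03%) or T18VN (0.961%). By RefSeq class, 18 of 30 snRNA genes passed, which besides the 4 members were RN7SK, RNU6-1 and 12 SNAR-A copies. Of 52 snoRNA genes 13 passed, against 61 of 10858 protein-coding genes (0.562%). With 20 reads required in another library, 16 of 27 snRNA, 6 of 44 snoRNA and 15 of 10693 protein-coding genes passed. The SNAR-A copies resemble one another and are not independent. The same holds for RNU4-1 and RNU4-2, which are 97.2% identical and are both among the members that passed at each setting. RNU6-1, a U6 gene with 6 other exact copies, was chosen with its values in view. It had 100 reads in T18VNN and 0 in the other 6 libraries. At a floor of 3 reads in T30, the shallowest other HEK293T library, T18VNN would be 20.5-fold higher. RNU5F-1, another U5 variant, was lowest in T18VNN, with 31.1 CPM against 53.7 to 125 CPM in the other 5. T18VNN had a single library, so its difference from the others has no replicate check, and the primer cannot be told apart from the library.

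**Figure D3:**
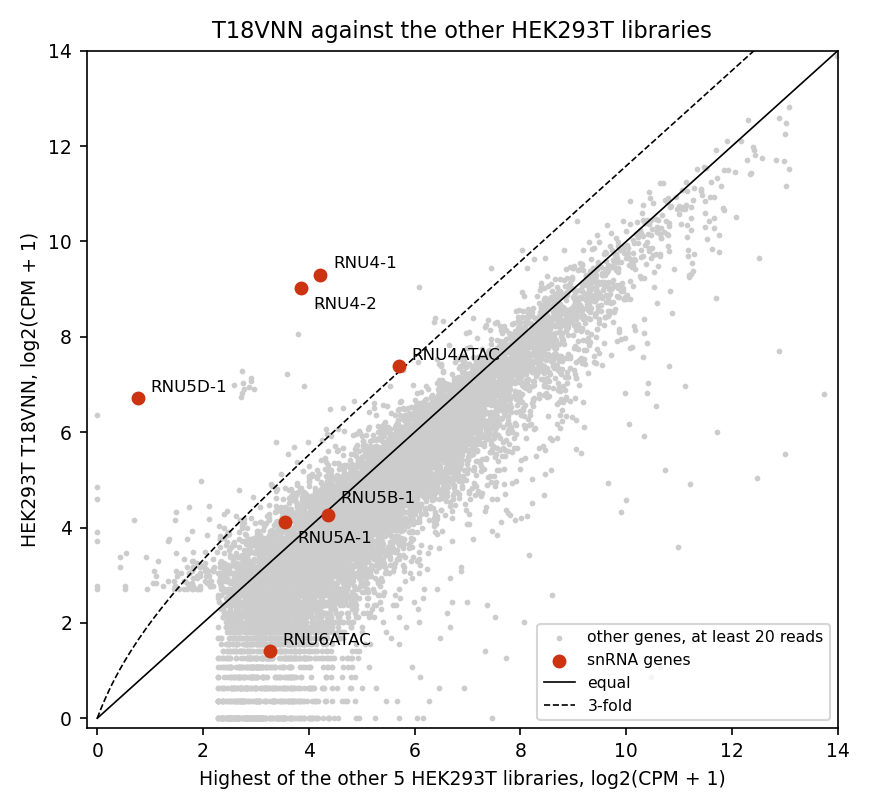
Level in HEK293T T18VNN against the highest of the other 5 HEK293T libraries, both as log2(CPM + 1), for 11764 genes (grey) and 7 snRNA genes (red). The solid line marks equality and the dashed line 3-fold, above which lie RNU4-1, RNU4-2, RNU5D-1 and RNU4ATAC.

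The comparison of primer classes asked whether anchor bases change snRNA capture. It set T18V, T18VN and T18VNN against T12, T18 and T30, with primers standing in for replicates, so p-values measure the spread between primers. RNU4-1 averaged 6.59 ± 4.78 CPM (SD, n = 3) over unanchored and 219 ± 357 CPM (SD, n = 3) over anchored primers. The log2 difference was 4.84 (SE 1.38), and its adjusted p of 0.115 missed the threshold of 0.05 in edgeR's quasi-likelihood test with Benjamini-Hochberg (BH) adjustment over 10887 genes. RNU4-2 averaged 7.99 ± 5.18 against 178 ± 294 CPM (SD, n = 3 each), and edgeR gave it a log2 change of 4.25 (SE 1.37) with an adjusted p of 0.161. For RNU4ATAC the class means were 19.4 ± 9.91 against 76.9 ± 79.9 CPM (SD, n = 3 each), and its log2 change of 1.82 (SE 0.73) had an adjusted p of 0.261 by edgeR. For all 3 the anchored SD was larger than the anchored mean, and T18VNN was the highest library. The class ranges overlapped for each of the 6 members tested, whereas 16.8% of all genes had the 3 anchored libraries above the 3 unanchored ones and 6.8% the reverse.

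RNU5B-1 had a log2 change of 0.36 (SE 0.57) with an edgeR adjusted p of 0.825, RNU5A-1 one of -0.08 (SE 1.07, adjusted p = 0.982) and RNU11 one of -0.86 (SE 0.98, adjusted p = 0.746). None of the 6 members tested passed the edgeR threshold, where 1.35% of all genes did (0.781% higher and 0.569% lower). RNU4-1, RNU4-2 and RNU4ATAC had an unadjusted p under 0.05 and were higher with anchors, as were 8.08% of all genes (15.6% in either direction). The median log2 change of the 6 was 1.09, against -0.0018 over all genes. RNU5D-1, RNU6ATAC, RNU12 and RNU1-1 were not tested because of low counts. DESeq2 also called 0, with 1 at an unadjusted p under 0.05, but gave an adjusted p for only 2 of the 6. Without T18VNN the log2 fold change of RNU4-1 was 0.76 (SE 0.86), that of RNU4ATAC 0.53 (SE 0.65) and that of RNU4-2 turned to -0.20 (SE 0.83), and 0 of 7 members then had an unadjusted p under 0.05 (edgeR). Without a filter on low counts, 4 members passed (RNU4-1, RNU4-2, RNU5D-1 and RNU4ATAC), where 3.39% of all genes did. With scaling by the library total 3 passed (RNU4-1, RNU4-2 and RNU4ATAC), where 20.1% of all genes did. The second scaling moved the median log2 fold change of all genes to 1.08 and the share of calls that were higher from 57.8% to 97.7%.

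**Figure D4:**
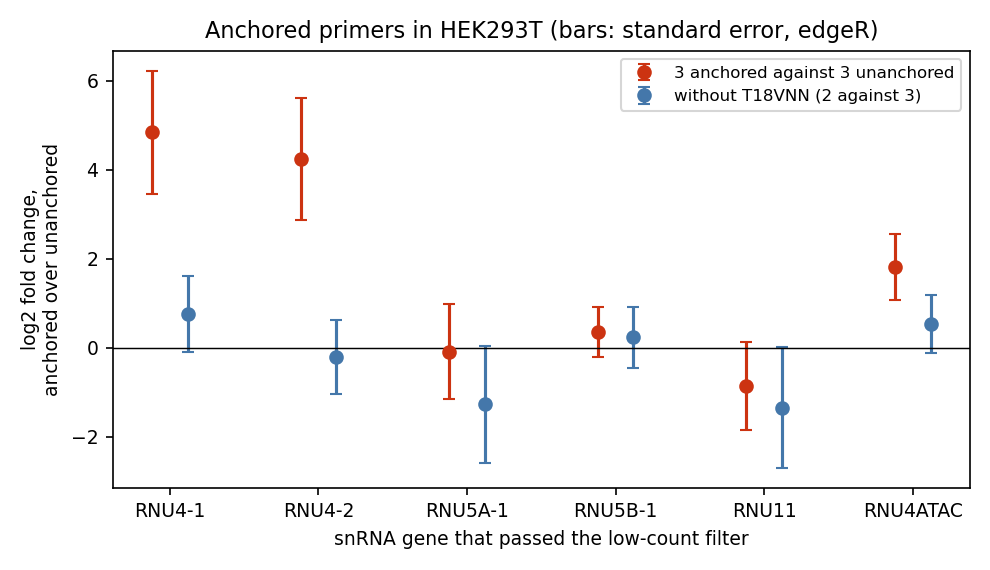
log2 fold change of anchored over unanchored primers in HEK293T for the 6 snRNA genes tested, with all 6 libraries (red) and without T18VNN (blue). Bars are standard errors. The values of RNU4-1 and RNU4-2 fall from 4.84 and 4.25 to 0.76 and -0.20 when T18VNN is left out.

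Genes for the protein partners of the snRNAs were then examined. Of 121 protein-coding genes tested on 6 spliceosome and snRNA processing lists, 1 rose with anchored primers and none fell. Of all genes tested, 0.781% rose and 0.569% fell. TXNL4A, a component of the U5 snRNP, averaged 146 ± 10.1 CPM over unanchored and 526.3 ± 160 CPM over anchored primers (SD, n = 3 each), and edgeR gave a log2 change of 1.67 (SE 0.32) with an adjusted p of 0.0297. Its 3 anchored values, 385 to 700.5 CPM, all lay above the unanchored ones of 136 to 156 CPM. It lost the threshold in 5 of the 6 fits that left out a library and kept it only without T18VN, with adjusted p from 0.0354 to 0.104 over the 6. None of 14 Sm and LSm proteins, the rings that bind snRNAs, passed (median log2 fold change 0.44). None of 13 minor spliceosome proteins (0.070), 23 snRNA transcription and Integrator genes (0.19), 22 snRNP assembly genes (-0.046) or 17 genes of snRNA tailing and trimming (-0.17) passed either. Over the 121 genes the median was 0.070. By edgeR, 21 had an unadjusted p under 0.05 (13 higher and 8 lower), where 15.6% of all genes did. DESeq2 called 8 of the 121, and 5.58% of all genes.

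Each member that passed the filter was compared with 9182 genes over the 7 libraries. The measure was the root mean square difference of log2(CPM + 1), each gene centred on its mean. The closest matches were RNU5B-1 with SMIM3 (0.116) and RNU11 with PDXP (0.119), both protein-coding genes. RNU5A-1 was nearest to STAG3 (0.583). RNU4-1 and RNU4-2 were each other's nearest gene (0.567). RN7SK came next for both (1.01 from RNU4-1 and 0.827 from RNU4-2), with 7.11 to 17.2 CPM in 5 HEK293T libraries, 404 CPM in T18VNN and 27.4 CPM in A549. SUSD6 was the third for both (1.10 and 1.01). RNU4ATAC was nearest to IRS4 (0.477), SNORA12 (0.506) and UST (0.522). SNORA12, an H/ACA small nucleolar RNA, had 1384 CPM in T18VNN, 538 in T18VN and 95.5 to 156 in the other 4 HEK293T libraries.

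The last comparison set A549 against HEK293T with the same T12 primer, 1 library each, so no test was possible. The A549 library was labelled biological replicate 2 and the HEK293T library biological replicate 1. Cell line and replicate label therefore cannot be told apart. Levels are shares of the gene reads of a whole culture, so the amount of RNA per cell was not measured. The U4 genes were higher in A549. RNU4-1 had 79 reads in A549, which is 52.7 CPM, against 35 reads and 10.7 CPM in HEK293T, a ratio of 4.92 (exact interval 3.27 to 7.55). RNU4-2 had 64 reads (42.7 CPM) and 24 (7.35 CPM), 5.81-fold higher (3.59 to 9.72). Both A549 values lay above 5 of the 6 HEK293T libraries and below T18VNN.

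RNU5A-1 and RNU5B-1 were lower in A549. RNU5A-1 had no read in A549 against 35 in HEK293T, and would be 5.35-fold lower at the floor of 3 reads. The exact interval of its A549 to HEK293T ratio was 0 to 0.242. RNU5B-1 had 9 reads (6.01 CPM) and 64 (19.6 CPM), 3.26-fold lower (1.62 to 7.46), but T18 in HEK293T was lower still with 5.77 CPM. RNU5F-1, which is not a member, had 4 reads (2.67 CPM) and 362 (111 CPM), 41.5-fold lower (16.1 to 153), below all 6 HEK293T libraries. RNU5F-1 overlaps ARMH1 on the other strand. RNU5D-1 had 2 reads in A549 against 0 in HEK293T, which does not separate the lines.

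The minor spliceosome RNAs had few reads in A549. RNU4ATAC had 11 reads (7.34 CPM) and 40 (12.2 CPM), 1.67-fold lower with an interval of 0.840 to 3.61 that includes equality, although A549 lay below all 6 HEK293T libraries. RNU6ATAC had 1 read and 28, a ratio of 12.8 (2.12 to 525), below all 6 as well. With the median of the 6 HEK293T libraries in place of T12, its log2 ratio went from -2.52 to -0.89, and it was no longer counted as 2-fold lower. That of RNU4ATAC went from -0.67 to -1.52, past 2-fold lower. RNU11 had 0 reads and 14, which would be 2.14-fold lower at the floor of 3 reads. The exact interval of its A549 to HEK293T ratio was 0 to 0.657. A ratio past 2-fold on log2(CPM + 1) was counted where the higher of both libraries held 20 reads or more. By this rule 2 of 6 members were higher and 3 lower in A549, with a median log2 ratio of -1.11. Of all 10145 genes counted, 31.0% were higher and 29.2% lower, 60.2% in all, with a median of 0.021. A 2-fold difference was therefore common between these 2 libraries. Of the 6 members, 3 lay below all HEK293T libraries and 0 above all of them, against 28.8% and 33.8% of all genes. The 3 were RNU5A-1, RNU4ATAC and RNU6ATAC, with 0, 11 and 1 reads in A549, the library with fewest gene reads. Their Poisson upper limits in A549 (2.46, 13.1 and 3.72 CPM) lay above their lowest HEK293T values (0.223, 12.2 and 1.07 CPM). Counting error alone could therefore change these ranks.

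**Figure D5:**
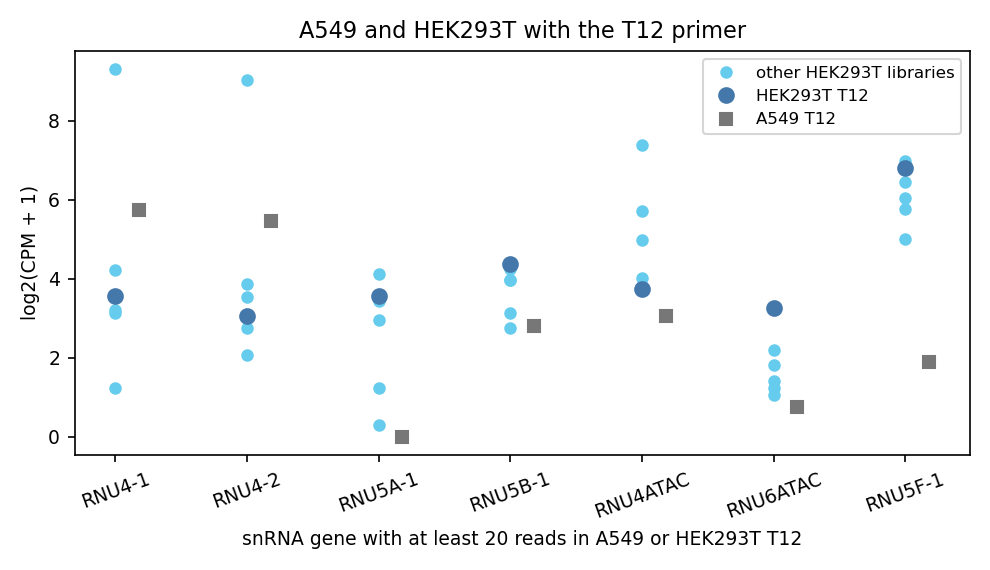
Level as log2(CPM + 1) in A549 T12 (squares), HEK293T T12 (dark circles) and the other 5 HEK293T libraries (light circles) for the 6 members with at least 20 reads in either T12 library and for RNU5F-1. A549 is above 5 of 6 HEK293T libraries for RNU4-1 and RNU4-2 and below all 6 for RNU5A-1, RNU4ATAC, RNU6ATAC and RNU5F-1. The A549 points of RNU5A-1 and RNU6ATAC rest on 0 and 1 reads.

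By the same rule, of 114 listed protein-coding genes 12 (10.5%) were higher and 40 (35.1%) lower in A549, with a median log2 ratio of -0.57. Over all 10145 genes counted, 31.0% were higher and 29.2% lower. SNRPD1, a subunit of the Sm ring, had 1499 reads in A549 against 34776 in HEK293T, 10.6-fold lower. WDR77, a partner of PRMT5 in Sm protein methylation, had 30 and 1372 reads, 21.0-fold lower, and GEMIN6, a subunit of the SMN complex that loads Sm rings, had 1 and 138 reads. TUT1, which adds U to the end of U6, had 29 and 479 reads, 7.58-fold lower. SNRPN, a tissue-restricted Sm protein, had 410 and 3 reads, a ratio of 298 (101.2 to 1451). PDCD7, a U11/U12 protein, had 51 and 7 reads, 15.9-fold higher. Minor spliceosome proteins otherwise included SCNM1, 5.49-fold lower. On that list 3 of 11 (27.3%) were lower past 2-fold, near the 29.2% of all genes.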

How the data were processed

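RNA was measured in 9 libraries, of which 7 with gene counts were used; the other 2 and the gene body coverage hold no snRNA values. The deposited counts are reads per RefSeq transcript, in tables whose layout is that of RSeQC's FPKM_count, per the file headers. Beside each count the authors gave FPM, a scaled signal from which the library total was recovered, and the deposited FPKM; neither was tested. The submitters' processing notes name cutadapt 2.10, Trimmomatic 0.39, HISAT2 2.2.1, SAMtools and hg19, without settings.

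Accessions were matched to RefSeq symbols without their version (60133 of 61177 entries), and the entry with most reads was kept per gene. edgeR 4.0.16 (R 4.3.3) was run with filterByExpr, TMM, the quasi-likelihood F-test and BH adjustment over all genes, without covariates; the SE is the log2 fold change over the square root of F. DESeq2 1.42.0, other scalings, no filter, summed loci and each HEK293T library left out were alternatives. Ratios of 2 libraries have exact conditional 95% intervals, read counts exact Poisson and shares Wilson ones. Intervals and floors leave out PCR duplication, as no molecular identifiers are described, and so reflect counting error only. A549 ratios use a pseudocount of 1 on the log2 scale, which understates changes of low genes. Listed genes were named where they passed the edgeR test (at most 3 a list), or were the 2 highest and 2 lowest A549 ratios of a list with at least 50 reads and a value outside the HEK293T range; not all are printed. Members and lists were chosen with earlier results of these data known. Sequences are from GENCODE release 29. Some transcript sequences are not reported here.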

Additional observations from a re-analysis of the deposited data

Results flagged for a closer look

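Of 8 snRNA genes compared, 5 had a highest HEK293T library whose gap to the next exceeded what is usual for 6 values. Counting gaps at either end, chance gives such a gap in about 1 in 20 groups of like samples. These 6 libraries come from different primers. Of 15145 genes with at least 3 reads, 17.6% met the same rule at their highest library and 18.2% at either end. RNU4-1 had 631 CPM in T18VNN (next highest 17.6), RNU4-2 had 518 CPM (13.5), RNU5D-1 had 104 CPM (0.711) and RNU4ATAC had 167 CPM (51.1). RNU6ATAC had 8.57 CPM in T12, against 3.57 CPM in the next library. The first 4 values come from the same library and are not independent.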

How the results depend on the processing

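The number of members that passed the anchored test was 0 in the reported fit, 3 with scaling by the library total and 4 without a filter, and 0 in each fit that left out a library. Listed genes called, other snRNA genes included, numbered 1 as reported, 8 with DESeq2, 29 with the library total, 6 without a filter, and 0 to 1 without a library. RNU5A-1 changed sign to 0.067 without TMM and 0.82 with the library total, and ranged from -1.27 to 0.47 without a library; RNU11 changed sign to 0.078 with the library total, and RNU4-2 ranged from -0.20 to 4.87 without a library. The cause of these changes was not tested, except that leaving out T18VNN removes the high U4 library. Over all genes, calls numbered 147 as reported, 608 with DESeq2, 556 without a filter, 209 without TMM, 2257 with the library total and 45 to 111 without a library. In A549 against HEK293T, requiring 50 reads left 1 member 2-fold lower, of 3 counted, and 6 listed genes 2-fold higher, and the library total left 7. TMM moved the median log2 ratio of all genes from 0.021 to -0.24 and the library total to -0.26. The T18VNN excess kept its direction in each scaling. The 10-fold threshold and the 20 reads in another library were added after seeing the data. No paired analysis was possible because each primer and cell line had gene counts for 1 library. Low counts limit RNU11, RNU6ATAC and, outside T18VNN, RNU5D-1, whose values rest on at most 28 reads.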
